A study of Homo sapiens with 3 samples.

Results

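The 42 genes described here encode the proteins that license replication origins, open the helicase, copy DNA and hold the replication fork together. They were chosen by symbol as genes of these steps, and all 42 were found among the 44591 genes of the table. All 42 also had a mean of at least 1 RPKM (reads scaled by the length of the gene model and the size of the library) over the 3 libraries, a level that 12403 genes reached. RNA was taken 48 h after transfection of Caki-1, a human clear cell renal cell carcinoma line. One library was made from cells given si-Control, one from cells given si-HOIL-1#1 and one from cells given si-HOIL-1#2, where both siRNAs target HOIL-1, the protein of the RBCK1 gene and a subunit of the linear ubiquitin ligase complex. Each condition had 1 library, so no difference could be tested against a spread between cultures, and both siRNAs were read against the same si-Control library.

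In G1 the origin recognition complex, CDC6 and CDT1 load the MCM helicase onto origins, a step called licensing, and geminin blocks CDT1 once S phase has begun. CDC45 and the GINS complex then turn the loaded MCM ring into an active helicase, polymerase alpha-primase lays down primers, and polymerases epsilon and delta extend the leading and lagging strands while PCNA, loaded by the RFC complex, tethers them to DNA. Many of these genes are transcribed through E2F factors, whose activity rises as cells pass from G1 into S phase.

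The siRNAs and the start-site sequences are shown first, because the siRNAs define the groups and an E2F motif was more common at the members' start sites than at those of all genes. The sense strands, which the study lists as siRBCK1 #1 and #2, are given with capitals at the bases that pair with guide bases 2 to 8, the seed, which an siRNA can use to act on other transcripts.
si-HOIL-1#1: ggtgcaccttcATCAACAa
si-HOIL-1#2: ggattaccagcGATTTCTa
Neither full sequence occurred in the longest protein-coding transcript of any of the 42 members, and both occurred in RBCK1. The seed letters of si-HOIL-1#1 occurred in the transcripts of 8 of 42 members (19%), against 23.8% of 10568 genes, and those of si-HOIL-1#2 in 16 of 42 (38.1%), against 29.2%. Members with the seed letters had a median log2 ratio to si-Control of 0.80 with si-HOIL-1#1 and 0.42 with si-HOIL-1#2, and members without them 0.59 and 0.60.

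Start-site stretches of 90 bases, from 70 before to 20 after the start, are given for some members, picked after the values were seen. PCNA, CDT1, POLE, GINS2, CLSPN and ORC1 were among the most different between libraries, though not all such members are printed. Stretches of POLA2 and CDC6 stand for the priming and licensing steps, and that of ORC4 for a member lower with both siRNAs. All are from RefSeq on build GRCh38.p14, read in the direction of the gene, with an E2F motif in capitals where there is one (TTTCCCGC, TTTCGCGC, TTTGCCGC or TTTGGCGC, on either strand). PCNA is at chr20:5126603-5126692 (minus strand), POLA2 at chr11:65261892-65261981 (plus), POLE at chr12:132687323-132687412 (minus), GINS2 at chr16:85688935-85689024 (minus) and CDC6 at chr17:40287809-40287898 (plus). CDT1 is at chr16:88803719-88803808 (plus), CLSPN at chr1:35769959-35770048 (minus), ORC1 at chr1:52404404-52404493 (minus) and ORC4 at chr2:148021532-148021621 (minus).
PCNA: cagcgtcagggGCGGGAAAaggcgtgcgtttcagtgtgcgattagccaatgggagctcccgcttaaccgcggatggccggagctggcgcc
POLA2: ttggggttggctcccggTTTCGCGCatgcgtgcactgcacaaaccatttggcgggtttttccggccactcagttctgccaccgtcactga
POLE: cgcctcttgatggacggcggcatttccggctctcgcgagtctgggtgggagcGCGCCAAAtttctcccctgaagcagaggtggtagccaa
GINS2: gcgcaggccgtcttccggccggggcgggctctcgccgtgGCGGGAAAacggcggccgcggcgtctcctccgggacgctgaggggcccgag
CDC6: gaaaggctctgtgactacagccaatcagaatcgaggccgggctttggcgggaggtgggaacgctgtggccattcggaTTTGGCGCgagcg
CDT1: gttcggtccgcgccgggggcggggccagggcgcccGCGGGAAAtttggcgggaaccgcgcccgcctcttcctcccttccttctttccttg
CLSPN: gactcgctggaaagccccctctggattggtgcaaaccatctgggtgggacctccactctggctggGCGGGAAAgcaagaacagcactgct
ORC1: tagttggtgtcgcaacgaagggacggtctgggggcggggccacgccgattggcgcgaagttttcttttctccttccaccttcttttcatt
ORC4: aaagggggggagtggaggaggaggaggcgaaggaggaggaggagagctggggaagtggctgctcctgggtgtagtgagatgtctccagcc
ORC1 and ORC4 hold none of the searched letters in the window. GMNN (log2 ratios 1.49 and 1.38) and FEN1 (1.09 with each siRNA) also hold none and are not printed. The printed stretches thus hold a motif more often than the members as a whole.

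RBCK1 (chromosome 20, 388694 to 412783 on the plus strand of hg19) was at 33.3 RPKM with si-Control, 9.97 with si-HOIL-1#1 and 12.3 with si-HOIL-1#2. The target was thus lower in both libraries labelled with an siRNA against it. The ratio of reads to si-Control, each divided by its library total, was 0.299 with si-HOIL-1#1 (95% Clopper-Pearson interval 0.283 to 0.316) and 0.368 with si-HOIL-1#2 (0.349 to 0.388). All intervals here are exact, rest on reads recovered from the RPKM values and cover counting error only, not variation between cultures. The smallest gene length that gave whole reads was used. Reads of a gene may thus be a whole multiple of those given, with the same ratios and narrower intervals.

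The libraries were scaled by 36926834 reads for si-Control, 40442939 for si-HOIL-1#1 and 36344428 for si-HOIL-1#2. Each member had 127 to 6801 recovered reads in a library. Of 8 kidney epithelial tumour markers, 6 were at 1 RPKM or more in every library, with PAX2 near 0. The summed level of this list was 1095 RPKM with si-Control and 2026 and 2022 RPKM with si-HOIL-1#1 and si-HOIL-1#2. Most of this difference was in VIM, at 664, 1512 and 1392 RPKM, while PAX8, at 124, 82.5 and 107 RPKM, and MET, at 144, 112 and 109 RPKM, were lower with both siRNAs. The part of these markers in the results below was not tested. Summed endothelial markers reached at most 0.0495 RPKM. Of the leukocyte markers CD3E was at 0 in all 3 libraries and only CD68 reached 1 RPKM in all of them, and of the fibroblast markers only COL1A1 did.

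Most replication members were higher with both siRNAs. With si-HOIL-1#1, 36 of 42 had a log2 ratio above 0 and 6 below, and with si-HOIL-1#2, 34 were above and 8 below. Of all 12403 genes, 6393 were above 0 and 6009 below with si-HOIL-1#1, and 6641 and 5756 with si-HOIL-1#2. Ratios are log2((RPKM + 1) of the siRNA library over (RPKM + 1) of si-Control), which understates the difference of weakly expressed genes, and each siRNA has its own ratio to the shared control. With si-HOIL-1#1, 23 members (54.8%) were at least 1.5-fold higher, where 12.1% of the 12403 genes were, and 2 members (4.76%) were at least 1.5-fold lower, where 11.6% were. With si-HOIL-1#2, 20 members (47.6%) were at least 1.5-fold higher, against 11.3% of all genes, and 0 were at least 1.5-fold lower, against 9.32%. At a limit of 2-fold, 12 members were higher with each siRNA (28.6%), where 2.91% of all genes were with si-HOIL-1#1 and 2.5% with si-HOIL-1#2. The median log2 ratio of the members was 0.72 with si-HOIL-1#1 and 0.56 with si-HOIL-1#2, and over all genes it was 0.02 and 0.03. With 5 RPKM added in place of 1, weakly expressed genes are drawn toward 0. Then 17 members were at least 1.5-fold higher with si-HOIL-1#1, against 5.51% of all genes, and 14 with si-HOIL-1#2, against 4.81%. At this setting 0 members were at least 1.5-fold lower with si-HOIL-1#1, against 4.76% of all genes. Summed over the 42 members, the level was 548 RPKM with si-Control, 867 with si-HOIL-1#1 and 816 with si-HOIL-1#2. In RNA from a whole culture, a change in the share of cells in S phase and a change in RNA per cell cannot be told apart.

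**Figure D1:**
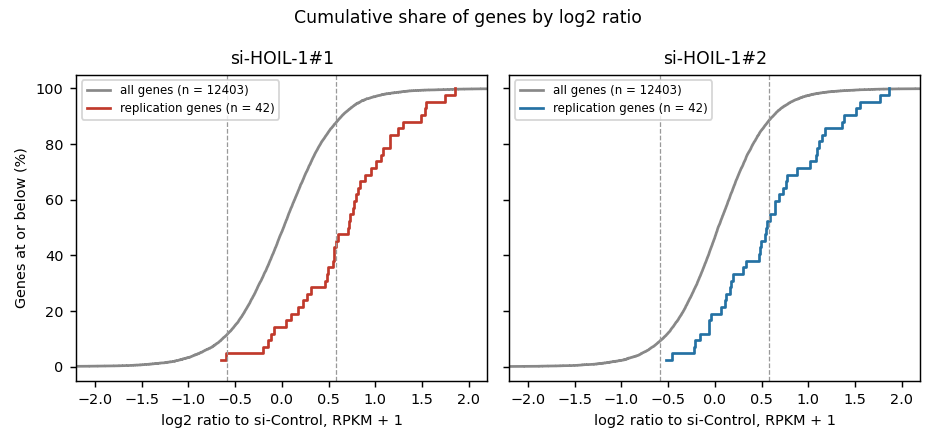
Cumulative share of genes (vertical axis, percent) by log2 ratio to si-Control (horizontal axis), for all 12403 genes and for the 42 replication members, with one panel per siRNA. The member curve lies to the right of the curve of all genes, with medians of 0.72 and 0.56 against 0.02 and 0.03.

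**Figure D2:**
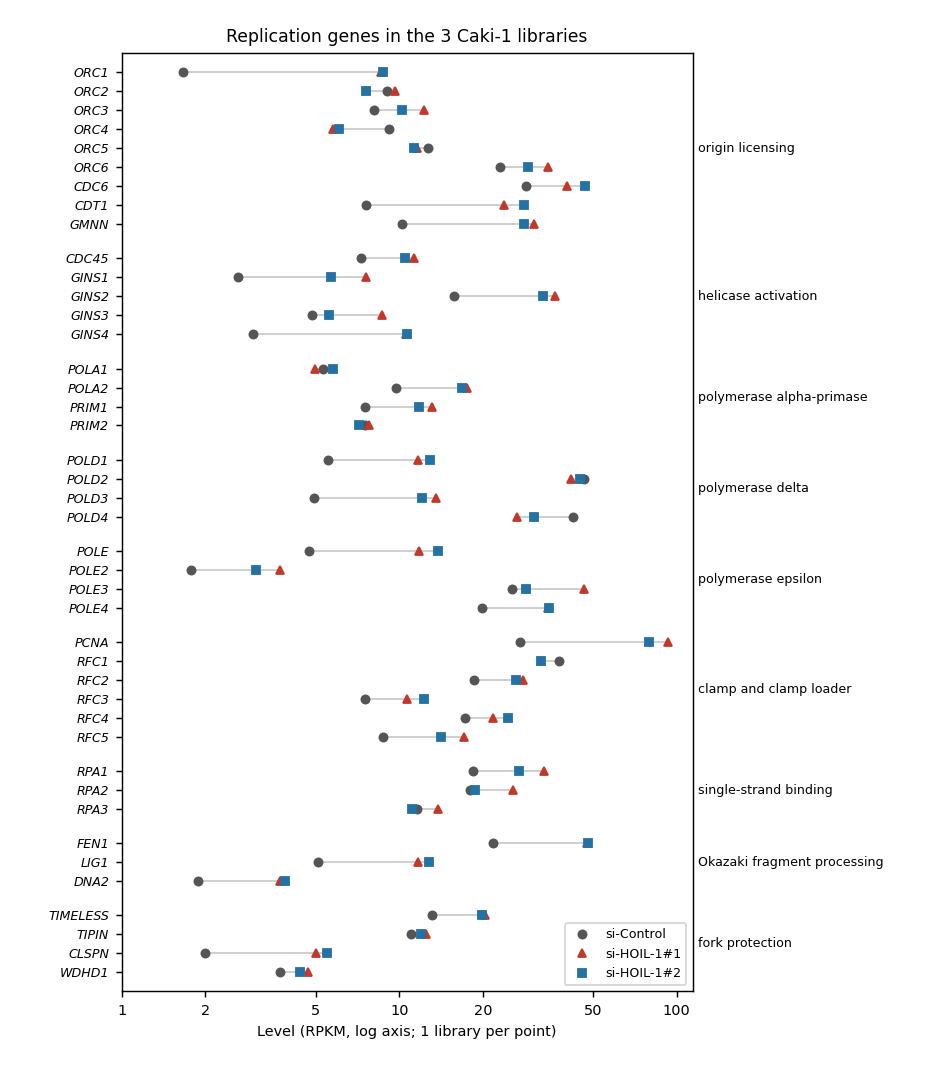
Level of each of the 42 members (RPKM, log axis) in the 3 libraries, ordered by role in replication. ORC1 has the lowest level with si-Control (1.67 RPKM) and PCNA the highest with both siRNAs (93.3 and 79.4 RPKM).

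Origin licensing showed the widest differences between its own members. ORC1, the large ATP-binding subunit of the origin recognition complex (chromosome 1, 52838501 to 52870143 on the minus strand of hg19), was at 1.67 RPKM with si-Control, 8.61 with si-HOIL-1#1 and 8.73 with si-HOIL-1#2. The recovered reads numbered 195, 1104 and 1005. On the RPKM + 1 scale the log2 ratio was 1.85 with si-HOIL-1#1 and 1.87 with si-HOIL-1#2, the highest of the 42 on this scale with each siRNA. With 5 RPKM added, ORC1 had 1.03 and 1.04, below PCNA with 1.61 and 1.39. It was then also below 2 other licensing members, CDT1 with 1.19 and 1.40 and GMNN with 1.23 and 1.12. Counted from reads, without the added 1, the log2 ratio was 2.37 (2.15 to 2.60) and 2.39 (2.17 to 2.62).

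CDT1, the factor that brings the MCM helicase to origins (chromosome 16, 88870186 to 88875666, plus strand, hg19), was at 7.59 RPKM with si-Control, 23.8 with si-HOIL-1#1 and 28.2 with si-HOIL-1#2, log2 ratios of 1.53 and 1.77. GMNN, which encodes geminin, the CDT1 inhibitor (chromosome 6, 24775159 to 24786327, plus strand, hg19), was at 10.2 RPKM with si-Control, 30.6 with si-HOIL-1#1 and 28.2 with si-HOIL-1#2. Its log2 ratios were 1.49 and 1.38. The transcripts of the licensing factor and of its inhibitor were thus both higher, and the ratio of CDT1 to GMNN in RPKM was 0.743 with si-Control, 0.777 with si-HOIL-1#1 and 1 with si-HOIL-1#2. CDC6, the ATPase that loads MCM together with CDT1, was the most highly expressed licensing gene in each library, at 28.6, 40.3 and 46.7 RPKM. Its log2 ratio was 0.48 with si-HOIL-1#1 and 0.69 with si-HOIL-1#2, so it passed 1.5-fold with si-HOIL-1#2 and not with si-HOIL-1#1.

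None of the other origin recognition complex subunits was 1.5-fold higher on the RPKM + 1 scale with either siRNA. ORC4, another ATP-binding subunit (chromosome 2, 148687966 to 148779173, minus strand, hg19), was at 9.19 RPKM with si-Control, 5.76 with si-HOIL-1#1 and 6.08 with si-HOIL-1#2, log2 ratios of -0.59 and -0.53. Its reads gave log2 ratios of -0.67 (-0.77 to -0.58) and -0.60 (-0.69 to -0.50), below 0 for both siRNAs. ORC2 was at 9, 9.69 and 7.57 RPKM, ORC3 at 8.08, 12.3 and 10.2, ORC5 at 12.7, 11.6 and 11.3, and ORC6 at 23, 34.3 and 29.1. These 4 had log2 ratios between -0.22 and 0.56. Within the complex the highest subunit, ORC6 in every library, stood 13.8 times above the lowest with si-Control (ORC1), and 5.96 and 4.79 times above the lowest with si-HOIL-1#1 and si-HOIL-1#2 (ORC4). The ratio of ORC1 to ORC4 was 0.181 with si-Control, 1.5 with si-HOIL-1#1 and 1.44 with si-HOIL-1#2. Over all 9 licensing members, 3 (33.3%) were at least 1.5-fold higher with si-HOIL-1#1, against 12.1% of all genes. With si-HOIL-1#2, 4 (44.4%) were, against 11.3%. The medians were 0.55 and 0.33. ORC4 overlaps MBD5 over 594 bases and ACVR2A over 431 bases, both on the other strand. MBD5 was at 2.39, 1.67 and 1.63 RPKM and ACVR2A at 1.31, 2.06 and 0.976. Whether the counting used strand is not given in the sources used here.

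**Figure D3:**
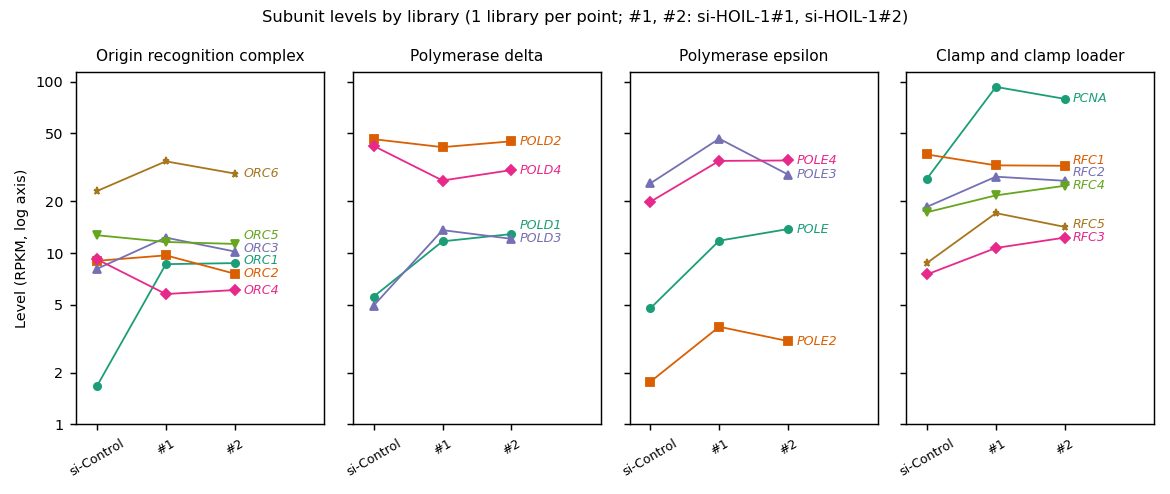
Level (RPKM, log axis) of each subunit of the origin recognition complex, of polymerase delta, of polymerase epsilon and of the clamp with its loader, by library. Lines join a gene's 3 values: ORC1 crosses above ORC4 in both siRNA libraries, and PCNA crosses above RFC1.

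In helicase activation all 5 members had log2 ratios above 0 with both siRNAs. GINS4, one of the GINS subunits (chromosome 8, 41386725 to 41402565, plus strand, hg19), was at 2.98 RPKM with si-Control, 10.6 with si-HOIL-1#1 and 10.7 with si-HOIL-1#2, log2 ratios of 1.55 and 1.56. GINS1 was at 2.62, 7.57 and 5.69 RPKM, log2 ratios of 1.24 and 0.88, and GINS2 at 15.8, 36.3 and 32.9 RPKM, log2 ratios of 1.15 and 1.01. GINS3 was at 4.86, 8.67 and 5.6 RPKM, log2 ratios of 0.72 and 0.17, so with si-HOIL-1#2 it was the subunit nearest to its si-Control level. CDC45, which binds GINS and MCM in the active helicase, was at 7.26, 11.3 and 10.5 RPKM, log2 ratios of 0.58 and 0.48, just short of the 1.5-fold limit on this scale. At least 1.5-fold higher were 4 of 5 members with si-HOIL-1#1 and 3 of 5 with si-HOIL-1#2, against 12.1% and 11.3% of all genes. The group's median log2 ratio was 1.15 with si-HOIL-1#1 and 0.88 with si-HOIL-1#2. With 5 RPKM added in place of 1, these medians were 0.72 and 0.49.

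Among the polymerases, 8 of 12 subunits (66.7%) were at least 1.5-fold higher with si-HOIL-1#1, against 12.1% of all genes. With si-HOIL-1#2, 6 of 12 (50%) were, against 11.3%. The medians were 0.77 and 0.57. Within polymerase alpha-primase the subunits split into 2 pairs. POLA2, the regulatory subunit, was at 9.74 RPKM with si-Control, 17.6 with si-HOIL-1#1 and 16.8 with si-HOIL-1#2, and PRIM1, the catalytic primase subunit, at 7.52, 13.1 and 11.8 RPKM. The log2 ratios were 0.79 and 0.73 for POLA2, and 0.73 and 0.59 for PRIM1. POLA1, the catalytic polymerase, was at 5.3, 4.96 and 5.79 RPKM, and PRIM2, the large primase subunit, at 7.51, 7.81 and 7.15. The log2 ratios of POLA1 and PRIM2 lay between -0.08 and 0.11, within the 1.5-fold limit for both.

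Polymerase delta also split. POLD3, an accessory subunit (chromosome 11, 74303575 to 74354105, plus strand, hg19), was at 4.93 RPKM with si-Control, 13.6 with si-HOIL-1#1 and 12.1 with si-HOIL-1#2, log2 ratios of 1.30 and 1.14. POLD1, the catalytic subunit, was at 5.56, 11.7 and 12.9 RPKM, log2 ratios of 0.95 and 1.08. POLD2, the core accessory subunit, stood at 46.2, 41.5 and 44.9 RPKM, log2 ratios of -0.15 and -0.04. POLD4, the smallest subunit (chromosome 11, 67118236 to 67121067, minus strand, hg19), was lower, at 42.2, 26.5 and 30.5 RPKM, log2 ratios of -0.65 and -0.45. From reads, POLD4 was lower by a log2 ratio of -0.67 (-0.79 to -0.55) with si-HOIL-1#1 and -0.47 (-0.59 to -0.35) with si-HOIL-1#2. The ratio of POLD3 to POLD4 was 0.117 with si-Control, 0.511 with si-HOIL-1#1 and 0.395 with si-HOIL-1#2, and the highest subunit stood 9.37, 3.55 and 3.72 times above the lowest. POLD4 and ORC4 are the 2 members that were at least 1.5-fold lower with si-HOIL-1#1. POLD4 overlaps LOC100130987 on the other strand, at 0.727 to 1.49 RPKM.

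Polymerase epsilon was higher in all 4 subunits with si-HOIL-1#1. POLE, the catalytic subunit, was at 4.75 RPKM with si-Control, 11.8 with si-HOIL-1#1 and 13.8 with si-HOIL-1#2, log2 ratios of 1.16 and 1.36. POLE2, an accessory subunit, was the lowest member with either siRNA, at 1.77, 3.71 and 3.06 RPKM. Its recovered reads numbered 127, 292 and 216, and its log2 ratios were 0.77 and 0.55. POLE4, a histone-fold subunit, was at 19.9, 34.5 and 34.7 RPKM, log2 ratios of 0.76 and 0.77. POLE3, its histone-fold partner, was at 25.5 RPKM with si-Control, 46.5 with si-HOIL-1#1 and 28.7 with si-HOIL-1#2, log2 ratios of 0.84 and 0.16. On the RPKM + 1 scale POLE3 was the only member at least 1.5-fold apart between the siRNA libraries, where 6.18% of all genes were, and on reads GINS3 was as well. From reads, its log2 ratio of si-HOIL-1#1 to si-HOIL-1#2 was 0.70 (0.63 to 0.77).

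The clamp was higher by more than any subunit of its loader. PCNA, the sliding clamp (chromosome 20, 5095599 to 5107268 on the minus strand of hg19), was at 27.2 RPKM with si-Control, 93.3 with si-HOIL-1#1 and 79.4 with si-HOIL-1#2, log2 ratios of 1.74 and 1.51. From reads the log2 ratio was 1.78 (1.70 to 1.86) with si-HOIL-1#1 and 1.55 (1.46 to 1.63) with si-HOIL-1#2. RFC1, the large subunit of the loader, was at 37.6, 32.5 and 32.3 RPKM, log2 ratios of -0.21 with each siRNA. PCNA therefore stood below RFC1 with si-Control (0.723 of its level) and above it with si-HOIL-1#1 (2.87 times) and si-HOIL-1#2 (2.46 times). RFC5, one of the small subunits, was at 8.75, 17.1 and 14.2 RPKM, log2 ratios of 0.89 and 0.64, and RFC3 at 7.5, 10.7 and 12.3 RPKM, log2 ratios of 0.46 and 0.65. RFC2 and RFC4, the remaining small subunits, had log2 ratios between 0.31 and 0.56. The order of the 5 loader subunits by level was the same in the 3 libraries, from RFC3 through RFC5, RFC4 and RFC2 to RFC1, and RFC1 stood 5.02 times above RFC3 with si-Control and 3.03 and 2.62 times above it with the siRNAs.

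Replication protein A, which coats single-stranded DNA, stood nearer to its si-Control level with si-HOIL-1#2 than with si-HOIL-1#1. RPA1, the large DNA-binding subunit, was at 18.5 RPKM with si-Control, 33.3 with si-HOIL-1#1 and 27.1 with si-HOIL-1#2, log2 ratios of 0.82 and 0.53. RPA2 was at 18, 25.8 and 18.8 RPKM and RPA3, the smallest subunit, at 11.6, 13.8 and 11.1, with log2 ratios of 0.50 and 0.06 for RPA2 and of 0.23 and -0.06 for RPA3. The median was 0.50 with si-HOIL-1#1 and 0.06 with si-HOIL-1#2. RPA3 lies across UMAD1 on the other strand over 77972 bases, and UMAD1 was at 6.43, 1.47 and 2.91 RPKM, so reads of the pair may be shared if the counting ignored strand.

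Okazaki fragment processing was higher in all 3 members with both siRNAs, with medians of 1.06 and 1.09. FEN1, the flap endonuclease, was at 21.8 RPKM with si-Control, 47.5 with si-HOIL-1#1 and 47.8 with si-HOIL-1#2, a log2 ratio of 1.09 with each. LIG1, the ligase that seals lagging strand fragments, was at 5.1, 11.7 and 12.8 RPKM, log2 ratios of 1.06 and 1.18. DNA2, a nuclease and helicase that trims long flaps, was at 1.88, 3.72 and 3.87 RPKM, log2 ratios of 0.71 and 0.76. The log2 ratios with the 2 siRNAs differed by at most 0.12 in each of the 3 genes.

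In fork protection, CLSPN stood apart from the other members. CLSPN encodes claspin, the adaptor through which a stalled fork signals to the checkpoint kinase CHK1, and was at 1.99 RPKM with si-Control, 5.02 with si-HOIL-1#1 and 5.5 with si-HOIL-1#2, log2 ratios of 1.01 and 1.12. TIMELESS, a scaffold of the fork protection complex, was at 13.1, 20.4 and 19.8 RPKM, log2 ratios of 0.60 and 0.56. On this RPKM + 1 scale it passed 1.5-fold with si-HOIL-1#1 alone, and on reads with both siRNAs (0.64 and 0.59). TIPIN, its partner, was at 11, 12.5 and 12 RPKM, log2 ratios of 0.17 and 0.12. WDHD1, which links the helicase to polymerase alpha, was at 3.72, 4.69 and 4.4 RPKM, log2 ratios of 0.27 and 0.19. The group's median was 0.44 with si-HOIL-1#1 and 0.38 with si-HOIL-1#2.

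Set side by side, the group medians with si-HOIL-1#1 ran from 1.15 in helicase activation and 1.06 in Okazaki fragment processing, through 0.80 in polymerase epsilon, 0.55 in origin licensing, 0.51 in the clamp and its loader and 0.50 in single-strand binding, to 0.44 in fork protection, 0.40 in polymerase delta and 0.39 in polymerase alpha-primase. With si-HOIL-1#2 the medians were 0.88, 1.09, 0.66, 0.33, 0.57, 0.06, 0.38, 0.52 and 0.35 in the same order of groups. With 3 to 9 genes a group, these medians turn on single genes.

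On reads alone, the counting interval lay above 0 in 34 members with si-HOIL-1#1 and in 32 with si-HOIL-1#2, below 0 in 4 and 5, and held 0 in 4 and 5. These intervals say how well the libraries were sampled and say nothing of how another culture would vary. They were not computed over all genes, so the counts of intervals given here have no share of all genes to be read against. Compared with each other, the counting interval put si-HOIL-1#1 above si-HOIL-1#2 in 14 members and below it in 11, and held 0 in the other 17. After POLE3, the largest such ratios were in GINS3, at 0.63 (0.47 to 0.79), and in RPA2, at 0.46 (0.35 to 0.56).

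An E2F motif was found in the window from 250 bases before to 50 after the start in 15 of the 37 members that have a promoter in the RefSeq table (40.5%). The letters occurred in 3.33% of all 27305 promoters of that length and in 5.57% of the 8755 promoters of genes at 1 RPKM or more. The matches lay between -137 and 15 bases from the start, 13 of the 15 within the 90-base stretches, and were written TTTCCCGC in 9, TTTGGCGC in 5 and TTTCGCGC in 1. Of members at least 1.5-fold higher with either siRNA, 13 of 22 with a promoter held the motif (59.1%), and of the other members 2 of 15 did (13.3%). The median log2 ratio was 0.79 and 0.77 in members with a match and 0.56 and 0.40 in the 22 without. Over all genes with a promoter and at 1 RPKM or more, it was 0.14 and 0.11 with a match (488 genes) and 0.02 and 0.04 without (8267 genes). ORC1, GMNN, FEN1 and POLD1 held none of these letters in the window.

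The CCAAT box, read on both strands, occurred in 21 of 37 members (56.8%), against 35.7% of all promoters and 37.2% of those of genes at 1 RPKM or more. The cell cycle homology region letters TTTGAA, also on both strands, occurred in 0 of 37, against 15.4% and 9.34%. These motifs are letter matches, not sites shown to be bound. The promoters of POLD3, RPA2, RPA3, GINS4 and DNA2 were not used here.

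Replication genes outside the 42 were read from a list of 29, written from general knowledge but with earlier results of these data known. The list holds the MCM helicase, its activators, alternative clamp loaders, chromatin assembly factors and topoisomerase I. Of the 29, 14 (48.3%) were at least 1.5-fold higher with si-HOIL-1#1, against 12.1% of all genes, and 17 (58.6%) with si-HOIL-1#2, against 11.3%. With each siRNA 1 (3.45%) was lower, RNASEH2B (log2 ratios -0.63 and -0.59), against 11.6% and 9.32% of all genes. The median was 0.54 and 0.70. All 6 subunits of the MCM2 to MCM7 helicase were at least 1.5-fold higher with both siRNAs, with medians of 1.32 and 1.37, a helicase that the licensing members load. By the mean of both ratios, the 3 genes furthest from 0 were MCM4, at 17.3, 57.3 and 62.9 RPKM (1.67 and 1.80), MCM10, at 4.46, 17.5 and 15.7 RPKM (1.76 and 1.61), and MCM5, at 8.01, 21.4 and 23.9 RPKM (1.32 and 1.47).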

How the data were processed

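The 3 libraries were made from rRNA-depleted RNA with a directional kit and sequenced as pairs, per the labels. The authors deposited a table of RPKM values, 1 for each gene and library, and the submitters' processing notes name FastQC, Trimmomatic, TopHat2, HTSeq and the build hg19. Gene lengths, annotation version and the strand setting of the counting are not given in the sources used here. The authors' comparison columns (pooled control and treated values, fold change, p-value and q-value) were not used, and the si-Control entry of EGR1, which is not a number, was dropped.

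Each siRNA library was set against si-Control on log2(RPKM + 1), keeping genes whose mean reached 1 RPKM, and no p-value was computed with 1 library a group. Whole reads were recovered for 42 of 42 members (tolerance 0.002 of a read) from library totals inferred from RNAs of up to 200 nt and lengths up to 50000 nt. By rule, members at least 1.5-fold from si-Control with either siRNA are given in full and the others by range with the extremes of their role group. Of these others, those given with their own values beyond that were picked after the values were seen. The members and gene lists were chosen with earlier results of these data known, and the motifs, the seed scan and the printed stretches after values were seen. Alternatives were pseudocounts of 0.1 and 5 RPKM, recovered reads with no pseudocount, libraries scaled to equal medians or totals, a filter at 5 RPKM or none, only genes that code for protein, a 2-fold limit and means in place of medians. The library totals, the recovery of reads, the log2 ratios and the counting intervals were tested on simulated reads, without variation between cultures. The motif and seed scans and the alternative settings were not tested in this way. Work was done in Python 3.11.15, with pandas 2.3.3 and numpy 2.4.6 for tables, scipy 1.17.1 for intervals and matplotlib 3.10.9 for plots.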

Additional observations from a re-analysis of the deposited data

Results flagged for a closer look

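In 4 members of 42 the log2 ratios with the 2 siRNAs lay on opposite sides of 0. How often this happened over all genes was not computed, so the count has no share to be read against. The 4 members and their ratios follow. The ratios were -0.08 with si-HOIL-1#1 and 0.11 with si-HOIL-1#2 for POLA1, 0.05 and -0.06 for PRIM2, 0.23 and -0.06 for RPA3, and 0.10 and -0.22 for ORC2. The difference between the siRNAs was not tested, since each had 1 library. On reads, the counting interval of the ratio to si-Control held 0 for at least 1 siRNA in each of these 4 genes. Set directly against each other on reads, si-HOIL-1#1 over si-HOIL-1#2 gave log2 ratios of -0.22 (-0.34 to -0.10) for POLA1, 0.32 (0.18 to 0.45) for RPA3 and 0.36 (0.24 to 0.47) for ORC2, whose intervals exclude 0, and 0.13 (-0.02 to 0.27) for PRIM2. With libraries scaled to equal total RPKM, the ratio of PRIM2 with si-HOIL-1#1 was -0.0003, on the same side of 0 as with si-HOIL-1#2.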

How the results depend on the processing

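Of 420 single-member log2 ratios over 5 settings, 83 moved by more than their counting error. Among the 420, 1 changed sign (PRIM2 with si-HOIL-1#1, -0.0003 with equal total RPKM). Of 192 counts and medians, 173 stayed close to the reported value, counts within 1.5 times and medians within the members' typical counting error. Those 173 include the values with no filter and with only genes that code for protein. Both settings kept all 42 members, so these values could not differ. The 19 counts and medians that moved follow, and the cause was not tested beyond what the setting itself does. With 0.1 RPKM added, 1 member was at least 1.5-fold lower with si-HOIL-1#2, against 12.5% of all genes. The median of helicase activation with si-HOIL-1#2 was then 1.06. With 5 RPKM added, which pulls weak genes toward 0, 0 members were lower with si-HOIL-1#1, against 4.76% of all genes. The median of the members was then 0.48 with si-HOIL-1#1 and 0.42 with si-HOIL-1#2. The group medians were then 0.72 and 0.49 for helicase activation, 0.26 and 0.36 for polymerase delta, and 0.73 and 0.82 for Okazaki fragment processing, and with si-HOIL-1#2 0.46 for polymerase epsilon and 0.44 for the clamp and its loader. With 5 RPKM added, 8 members with si-HOIL-1#1 and 6 with si-HOIL-1#2 were no longer past 1.5-fold, among them, with si-HOIL-1#1, CLSPN (0.52), POLE2 (0.36) and DNA2 (0.34). With other scalings PRIM1 with si-HOIL-1#2 (0.54 and 0.56) and TIMELESS with si-HOIL-1#1 (0.55) were not. At a limit of 2-fold, 12 members were higher with each siRNA, against 2.91% and 2.5% of all genes. At that limit 0 members were lower with si-HOIL-1#1, against 3.27%. With means in place of medians, the clamp and its loader had 0.63 with si-HOIL-1#1, and with si-HOIL-1#2 origin licensing had 0.60 and single-strand binding 0.18. Recovered reads with si-Control were fewest in POLE2, GMNN and ORC1, at 127, 171 and 195, which may understate the reads of these genes. No paired analysis was possible because there was only 1 library for each siRNA and 1 for si-Control.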

Other observations

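Genes that act at entry into S phase were read from a list of 10, of which 9 passed the level filter and E2F2 did not. Of these 9, 6 (66.7%) were at least 1.5-fold higher with si-HOIL-1#1, against 12.1% of all genes, and 5 (55.6%) with si-HOIL-1#2, against 11.3%, and 0 were lower with either, with medians of 0.99 and 0.65. CCNE2, a cyclin E, was at 2.59 RPKM with si-Control, 8.86 with si-HOIL-1#1 and 10 with si-HOIL-1#2. E2F1, a transcription factor of the G1 to S transition, was at 7.83, 20.2 and 18.6 RPKM, and CDC25A, a phosphatase that activates CDK2, at 3.94, 13.3 and 6.74 RPKM.

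Of 16 genes of G2 and mitosis, 2 (12.5%) were at least 1.5-fold higher and 2 (12.5%) lower with each siRNA. These shares are near those of all genes, 12.1% higher and 11.6% lower with si-HOIL-1#1, and 11.3% and 9.32% with si-HOIL-1#2. The list had medians of -0.11 and -0.05. MKI67, the proliferation marker Ki-67, was at 11.9 RPKM with si-Control, 22.5 with si-HOIL-1#1 and 25.2 with si-HOIL-1#2. CCNB2, a mitotic cyclin, was at 22.8, 12.1 and 12.1 RPKM, and CENPE, a kinetochore motor, at 5.67, 2.56 and 3.08 RPKM. MKI67, CCNB2 and CENPE are named because they were furthest from 0 by the mean of both ratios. CCNB1, the other mitotic cyclin listed, went the other way from CCNB2, at 28.5, 42.3 and 45.1 RPKM. With each siRNA 7 of the 16 genes had a log2 ratio above 0 and 9 below.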
